A study of Gallus gallus with 21 samples.

Results

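The 8 genes described here carry the thyroid hormone and glucocorticoid signals of a cell: the receptors THRA, THRB and NR3C1, the deiodinases DIO2 and DIO3, the receptor cochaperone FKBP5, and the hormone-induced genes SGK1 and KLF9. They were taken by symbol from the 18631 genes listed in a table of the chicken retina, and all 8 were present. The retinas came from wild-type White Leghorn chickens fitted with a -10 D lens at 3 days of age, a lens that makes the growing eye elongate into short sight. The lens stayed on for 1, 3 or 6 days, with 7 libraries of total RNA for each duration. Every group wore the lens and no lens-free group was compared, so lens wear and age rose together and cannot be told apart.

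Thyroid hormone leaves its gland mostly as thyroxine. DIO2 turns it inside the cell into triiodothyronine, the form that binds the receptors THRA and THRB on DNA, and DIO3 inactivates both forms. In mice a cone form of THRB sets which opsin a cone makes, and loss of DIO3 costs the retina cones. Glucocorticoids bind NR3C1, which HSP90 and its cochaperones hold in the cytoplasm until hormone arrives, and FKBP5, itself induced by the receptor, lowers the receptor's affinity. KLF9 is induced by both hormones and SGK1 by glucocorticoids, and SGK1 also responds to other signals such as osmotic stress.

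Levels are in CPM, a read count that the authors scaled by its library's total, and are compared between days only within a gene, since CPM takes no account of gene length. If the smallest CPM step of each library is 1 read, depth came to about 30.8 to 49.3 M reads. The estimate gives 4032 to 8200 reads per library for THRB and 1848 to 4259 for KLF9, but 41 to 92 for THRA and 9 to 55 for DIO3, whose values carry the most counting error. The labels do not tell which libraries share a bird, and the p-values rest on the spread among libraries, which may be technical in part. Transcripts of the female W chromosome (HINTW) stood at 101 to 147 CPM in 10 libraries, 4 of day 1, 1 of day 3 and 5 of day 6, and at 0.024 to 0.598 CPM in the other 11. The numbers in the sample codes, which the labels do not explain, fall into a lower and a higher set on each day, 1 to 4 and 12 to 14 on day 1. Between the sets of day 1, 8.72% of all tested genes differed. Results are given with and without these splits where they change a call.

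Changes are on the scale log2(CPM + 1) with their standard error, tested with limma over the 11072 genes that averaged 1 CPM or more and adjusted by Benjamini-Hochberg. Of the 8 genes, 7 passed that filter and DIO3 did not. Among the 7, THRB and SGK1 fell from day 1 to day 3 and none rose, while 3.31% of all tested genes changed, 1.67% up and 1.63% down. From day 3 to day 6 SGK1 rose while KLF9 and FKBP5 fell, while 22.8% of all tested genes changed, 19.4% up and 3.44% down. From day 1 to day 6 THRA rose while KLF9 and THRB fell, while 24.3% of all tested genes changed, 19.8% up and 4.46% down. The F test over the 3 days passed for 5 of the 7 (DIO2, KLF9, SGK1, THRA and THRB), against 29.7% of all tested genes. The median change of the 7 genes was -0.16, 0.09 and -0.25 in the order of these comparisons, beside -0.00, 0.08 and 0.08 over all tested genes. The pairwise comparisons share libraries and are not independent of each other. The excess of rises by day 6 depended on how the libraries were scaled. With libraries set to a common scale by the median of ratios, 920 genes rose and 929 fell from day 3 to day 6. From day 1 to day 6, 901 rose and 1040 fell on that scale.

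**Figure D1:**
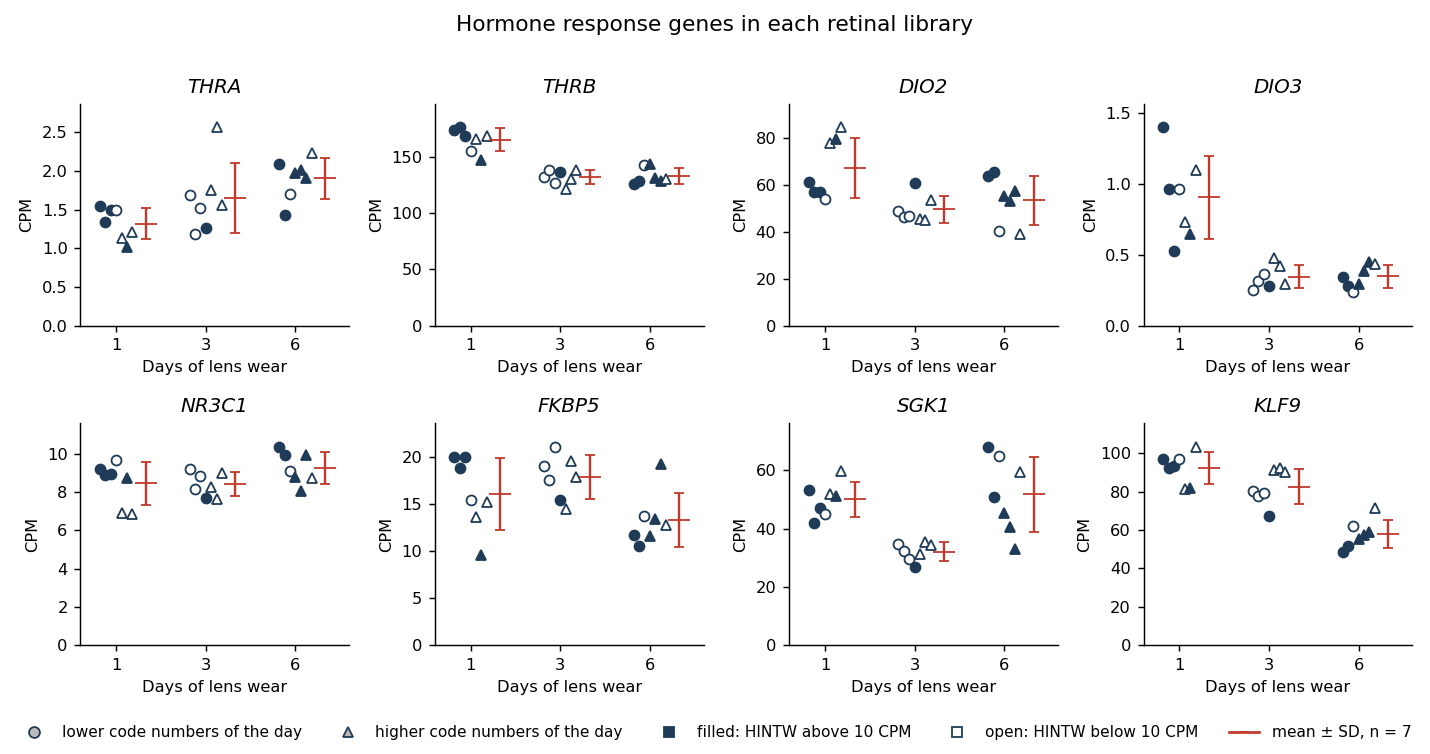
Level of each of the 8 genes in CPM (vertical axes, each starting at 0) by days of lens wear (horizontal axis). Each point is a library, and bars show the mean and SD of 7 libraries. THRB of day 1 (148 to 176 CPM) lies above both later days, SGK1 dips on day 3, and KLF9 of day 6 (48.7 to 71.6 CPM) lies below day 1.

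THRB (chromosome 2, 37204648 to 37372933, minus strand, GRCg6a) encodes a thyroid hormone receptor that has a cone form. Its lowest, median and highest levels were 148, 169 and 176 CPM on day 1, 122, 132 and 138 CPM on day 3, and 126, 130.4 and 143 CPM on day 6. Every day 1 library lay above every later one, while days 3 and 6 overlapped. The means were 165 ± 10.3 (SD, n = 7), 132 ± 6.19 and 133 ± 7.11 CPM. The drop to day 3 was -0.32 ± 0.05 (limma adjusted p = 0.000468) and that to day 6 was -0.31 ± 0.05 (0.000210), with all 7 later libraries below the day 1 mean in both. Groups without overlap were found for 1.54% of all tested genes between days 1 and 3 and for 6.20% between days 1 and 6. From day 3 to day 6 the difference was 0.01 (95% interval -0.09 to 0.11, adjusted p = 0.906). Both falls held against either code set of day 1, at -0.35 and -0.28 for day 3, and missed the threshold with the higher code sets of each day alone (adjusted p = 0.0806 and 0.0519).

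THRB has a cone form, so the cone markers are given beside it. The listed level is for the whole gene and does not tell its forms apart. In bulk tissue, fewer cells of a type and less RNA per cell cannot be told apart. Of 14 cone symbols 12 were tested. From day 1 to day 3, 1 rose and 2 fell, beside 1.67% and 1.63% of all tested genes. From day 3 to day 6, 6 rose and 1 fell, beside 19.4% and 3.44%. From day 1 to day 6, 4 rose and 3 fell, beside 19.8% and 4.46%. With median-of-ratios scaling 4 rose and 1 fell from day 3 to day 6. Against libraries 1 to 4 alone 1 rose and 4 fell by day 3, beside 201 and 425 of all 11072 genes. With the W-linked level in the fit 1 rose and 4 fell, beside 195 and 228. The summed level of the 13 listed cone genes spanned 1618 to 2174 CPM on day 1, 1440 to 2198 on day 3 and 1812 to 2401 on day 6. These ranges overlapped throughout, and none of the 13 genes was at 0 throughout. GRK7, the cone opsin kinase, fell along with THRB between days 1 and 3 (-0.57 ± 0.08, limma adjusted p = 0.000211) and from day 1 to day 6 (-0.43 ± 0.08, 0.000768). The cone marker GNGT2 went the other way, from 228.8 to 296.9 CPM on day 1 to 298.7 to 429.9 CPM on day 3. PDE6C, another cone marker, stood at 212.1 to 270 CPM on day 1, 209.8 to 279 on day 3 and 168.4 to 207.3 on day 6. Day 6 lay below both earlier days. Of all tested genes 5.76% did not overlap between days 3 and 6 and 6.20% between days 1 and 6. GNGT2 and PDE6C were chosen for mention after their values were seen. CNGA3, a subunit of the cone channel, changed by -0.83 ± 0.12 from day 1 to day 3 (0.000312) with no overlap of the groups, and this fall passed against both code sets of day 1 (-1.04, 0.000130, and -0.54, 0.0132). Its change from day 1 to day 6 was -0.47 ± 0.12 (0.00853), while the difference from day 1 libraries 12 to 14 was -0.19 and did not pass (0.292). Of the 3 tested cone opsin genes, none passed from day 1 to day 3. OPN1LW, the red opsin, averaged 87.7 ± 15.1, 129 ± 62.8 and 224 ± 68.7 CPM and rose by 1.31 ± 0.23 from day 1 to day 6 (0.000447). OPN1MSW, another cone opsin gene, rose by 0.96 ± 0.15 over the same days (0.000168). OPN1SW did not pass over those days (0.19 ± 0.15, 0.362) and was at -0.47 ± 0.15 on day 3 against day 1 (0.0828), chosen for mention after its values were seen. Of 13 rod symbols 10 were tested, and 5, 5 and 7 rose in the 3 comparisons with none falling. Rises over all tested genes were 1.67, 19.4 and 19.8%. By day 3, 2 rose against day 1 libraries 12 to 14, beside 326 of all 11072 genes. With the W-linked level in the fit 3 rose and 1 fell, beside 195 and 228. From day 3 to day 6, 3 rises and no fall were left on the median-of-ratios scale. From day 1 to day 6, 7 rose on that scale, beside 901 of all genes, and 7 against libraries 12 to 14, beside 1378. With the W-linked level 8 rose, beside 2406. Among the rod genes CNGB1, SLC24A1 and CNGA1 rose by 0.85 ± 0.11 (limma adjusted p = 2.53e-05), 0.89 ± 0.14 (0.000229) and 0.65 ± 0.12 (0.000519) from day 1 to day 6. PDE6B, MAFA and SAG differed by -0.40, -0.28 and -0.15 from day 1 to day 3, and none of these passed. The part of cell makeup in the fall of THRB was not tested.

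THRA (chromosome 27, 7152162 to 7163449, plus strand), the receptor gene that most tissues use, was near the lower end of what was tested. Its lowest, median and highest levels were 1.01, 1.33 and 1.55 CPM on day 1, 1.18, 1.56 and 2.56 CPM on day 3, and 1.43, 1.97 and 2.23 CPM on day 6. The days overlapped, with the day 6 libraries mostly above those of day 1. From means of 1.32 ± 0.204 on day 1 and 1.65 ± 0.454 on day 3 it reached 1.90 ± 0.265 CPM on day 6. The rise from day 1 to day 6 was 0.32 ± 0.09 (limma adjusted p = 0.0125), with 7 of 7 later libraries above the day 1 mean. At this level the added 1 CPM shrinks a change, so its size cannot be set beside that of THRB. The steps to day 3 (0.18 ± 0.09, 0.302) and from day 3 to day 6 (0.14 ± 0.09, 0.247) did not pass. The rise was 0.23 against day 1 libraries 1 to 4 alone (0.111) and 0.14 with the lower code sets of each day alone (0.358), neither of which passed. Over all 21 libraries THRA thus rose by day 6 while THRB, the other receptor for the same hormone, fell, although the rise of THRA did not hold in every split.

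DIO3 (chromosome 5, 49490516 to 49492000, plus strand), the enzyme that inactivates thyroid hormone, had the lowest counts of the 8 genes. The lowest, median and highest levels were 0.527, 0.960 and 1.40 CPM on day 1, 0.254, 0.315 and 0.474 CPM on day 3, and 0.239, 0.343 and 0.446 CPM on day 6. All 7 day 1 libraries lay above all 14 later ones. Among genes of 1 CPM or more, 1.54% did not overlap between days 1 and 3 and 6.20% between days 1 and 6. That share was not counted for genes as low as DIO3. Means were 0.902 ± 0.296 (SD, n = 7), 0.343 ± 0.081 and 0.346 ± 0.080 CPM. On the scale log2(CPM + 0.1) the change to day 3 was -1.15, or 0.452-fold, and the change to day 6 was -1.13, or 0.456-fold. An exact two-sided permutation test gave p = 0.000583 for each, the smallest that 7 against 7 libraries can give. Between days 3 and 6 the difference was 0.01 (exact permutation p = 0.931). With the filter lowered to 0.1 CPM, limma with a pseudocount of 1 gave -0.49 ± 0.08 to day 3 (adjusted p = 0.000777) and -0.49 ± 0.08 to day 6 (0.000269), where 2.21% and 18.2% of 14934 genes changed. The fall was of like size against either set of day 1, -1.22 (exact permutation p = 0.00303) and -1.05 (0.00833) for day 3, each the smallest p those numbers allow. An uncharacterized gene, LOC112532524, spans DIO3 on the opposite strand at a mean of 0.069 CPM. No source used here says whether reads were counted by strand, so reads of that pair may be mixed.

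DIO2 (chromosome 5, 40752222 to 40769123, minus strand), which makes the active hormone, also had its highest mean on day 1. Its lowest, median and highest levels were 54.03, 61.3 and 84.5 CPM on day 1, 44.9, 46.7 and 60.8 CPM on day 3, and 38.999, 55.3 and 65.4 CPM on day 6. The days overlapped. Means were 67.3 ± 12.8, 49.6 ± 5.76 and 53.5 ± 10.4 CPM. Levels differed among the days by the F test (limma adjusted p = 0.0282), but no pair of days passed: the values were -0.42 ± 0.12 to day 3 (0.0620) and -0.33 ± 0.12 to day 6 (0.0554).

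Day 1 held a gap that follows the sample codes. Libraries 1 to 4 had 54.03 to 61.3 CPM of DIO2 and libraries 12 to 14 had 78.0 to 84.5 CPM, with no overlap. THRA, NR3C1 and FKBP5 did not overlap between these sets either, with libraries 1 to 4 the higher. The share of all genes without overlap between the sets was not counted, so these gaps cannot be read as particular to these genes. By limma 8.72% of all tested genes differed between the sets. The difference of DIO2 within day 1 was 0.49 ± 0.15 (limma adjusted p = 0.0477), and DIO2 was the 1 gene of the 7 to pass there. FKBP5 (-0.52, 0.0573) and NR3C1 (-0.27, 0.0595) lay just over the threshold, and THRA was at -0.22 (0.188). Against libraries 12 to 14 alone DIO2 fell by 0.70 to day 3 (0.00901) and by 0.61 to day 6 (0.0107). Against libraries 1 to 4 alone the differences were -0.21 (0.324) and -0.12 (0.510). The size of the DIO2 difference therefore depended on which day 1 libraries it was measured from. THRB passed from either set, but not with the higher code sets of each day alone. For DIO3 all day 1 libraries lay above the later ones, so any part of day 1 gives the smallest p possible. Its call from either set could therefore not change.

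The ratio of DIO2 to DIO3 within a library, in CPM and so not a ratio of transcript numbers, had a lowest, median and highest value of 43.9, 77.3 and 123 on day 1. On day 3 these were 96.3, 147 and 217, and on day 6 they were 89.4, 169 and 234. At least the highest library of day 1 reached into the range of later days. No test was made of the ratio.

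**Figure D2:**
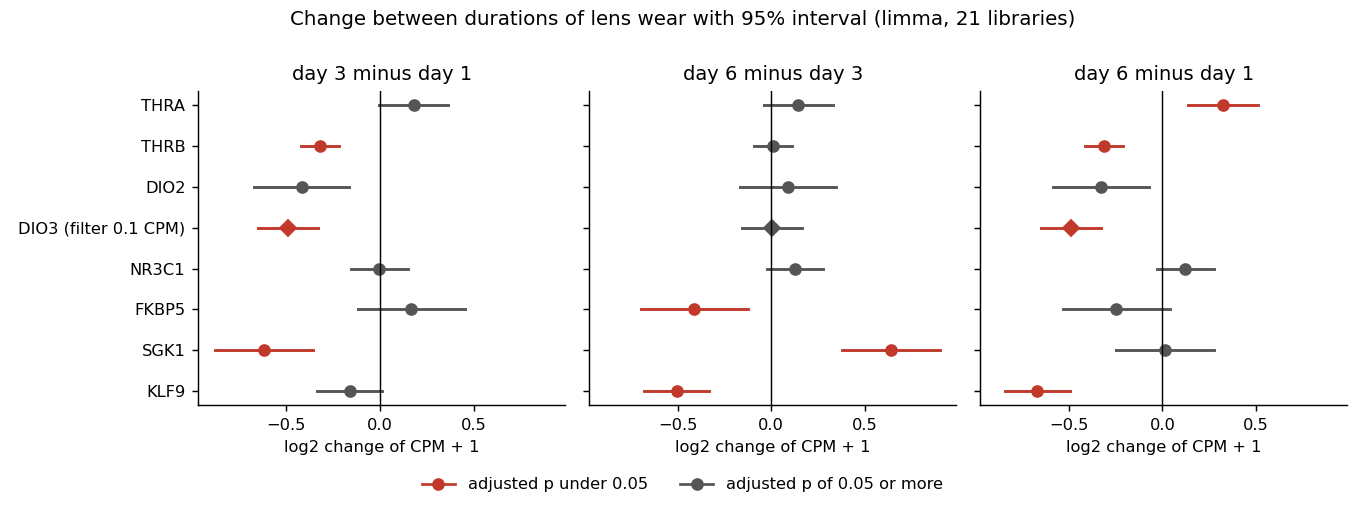
Change of the 8 genes between days (log2 change of CPM + 1, horizontal axis, with 95% intervals) in the 3 comparisons. DIO3 (diamonds) is from the fit with the filter at 0.1 CPM. Red symbols passed an adjusted p of 0.05 and grey ones did not. THRB lies below 0 in both comparisons with day 1, SGK1 moves down and back, and KLF9 lies furthest below 0 between days 1 and 6 (-0.67). The added 1 CPM shrinks the change of DIO3, which was -1.13 over those days on log2(CPM + 0.1).

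NR3C1 (chromosome 13, 18095744 to 18151878, minus strand), the glucocorticoid receptor, passed in no comparison. The lowest, median and highest levels were 6.87, 8.895 and 9.68 CPM on day 1, 7.65, 8.29 and 9.22 CPM on day 3, and 8.05, 9.11 and 10.4 CPM on day 6. The ranges overlapped on all days. The differences were -0.00 (limma adjusted p = 0.986), 0.13 (0.208) and, from day 1 to day 6, 0.12 (0.222, 95% interval -0.03 to 0.27). Against day 1 libraries 12 to 14 alone the last was 0.28 and passed (0.0390). The mineralocorticoid receptor gene NR3C2, which binds the same steroids, stood at 41.9 to 50.2 CPM over all libraries and did not pass either. It was singled out after its values were seen.

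FKBP5 (chromosome 26, 76662 to 94242, minus strand), the cochaperone that dampens the receptor, had its lowest mean on day 6. Its lowest, median and highest levels were 9.60, 15.4 and 20.01 CPM on day 1, 14.4, 17.8 and 21.1 CPM on day 3, and 10.49, 12.8 and 19.3 CPM on day 6. The days overlapped, and library 54 stood apart at the top of day 6, above the 10.49 to 13.7 CPM of the other 6. From 17.8 ± 2.34 CPM on day 3 it fell to 13.3 ± 2.88 CPM on day 6, a change of -0.41 ± 0.14 (limma adjusted p = 0.0353), with 6 of 7 later libraries below the day 3 mean. The changes from day 1 to day 3 (0.17 ± 0.14, 0.563) and from day 1 to day 6 (-0.25 ± 0.14, 0.196) did not pass. Nor did the F test over the 3 days (limma adjusted p = 0.0672). The fall is close to the threshold: it was lost on leaving out any 1 of day 3 libraries 25, 26, 27 and 38 or of day 6 libraries 46, 47, 51 and 55 (adjusted p up to 0.0742), and with the W-linked level in the fit (0.0701). Within day 1, libraries 1 to 4 had 15.4 to 20.01 CPM and libraries 12 to 14 had 9.60 to 15.2 CPM, so that the difference from day 1 to day 6 was -0.47 against the former (0.0116) and 0.05 against the latter (0.856).

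SGK1 (chromosome 3, 56205660 to 56278753, plus strand), a kinase gene that glucocorticoids switch on within hours, went down and came back. Its lowest, median and highest levels were 41.8, 51.2 and 59.9 CPM on day 1, 26.7, 32.1 and 35.4 CPM on day 3, and 32.9, 50.9 and 68.0 CPM on day 6. All day 3 libraries lay below all of day 1, days between which 1.54% of all tested genes did not overlap. Day 6 was the most spread and reached from the day 3 range to above that of day 1. The return from 32.1 ± 3.16 to 51.7 ± 13.01 CPM was a rise of 0.64 ± 0.13 (limma adjusted p = 0.00155), with 7 of 7 later libraries above the day 3 mean, after a fall of 0.62 on the same scale. Day 6 and day 1 differed by 0.02 (95% interval -0.25 to 0.28, adjusted p = 0.940). On day 6 the libraries numbered 46 to 48 held 50.9 to 68.0 CPM and those numbered 51 to 55 held 32.9 to 59.3 CPM. That difference was -0.47 ± 0.15 and did not pass (0.827), and 0 of all genes passed there by limma. With the higher code sets of each day alone the fall was -0.67 (0.0616) and the return 0.36 (0.186), neither of which passed.

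KLF9 (chromosome Z, 35029425 to 35045192, minus strand) is a transcription factor gene that both hormones induce directly. Its lowest, median and highest levels were 81.5, 93.55 and 103 CPM on day 1, 67.1, 80.4 and 92.3 CPM on day 3, and 48.7, 57.2 and 71.6 CPM on day 6. Day 6 lay wholly below day 1, and 1 of its libraries, number 55, reached into the range of day 3. Between days 1 and 6, 6.20% of all tested genes did not overlap. The decline passed the test after day 3 and not before: the step from 82.7 ± 9.20 to 58.0 ± 7.51 CPM was -0.51 ± 0.08 (limma adjusted p = 0.000492), with 7 of 7 later libraries below the day 3 mean, while the step from day 1 to day 3 was -0.16 ± 0.08 (0.310). From day 1 to day 6 the change was -0.67 ± 0.08, and between -0.72 and -0.63 on leaving out any 1 library.

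KLF9 lies on chromosome Z, of which males have a second copy, and W transcripts were unevenly spread over the days. Among libraries with W transcripts KLF9 stood at 81.8 to 97.2 CPM on day 1 (n = 4) and at 48.7 to 59.0 CPM on day 6 (n = 5). Among those without, it stood at 81.5 to 103 CPM on day 1 (n = 3) and at 62.4 to 71.6 CPM on day 6 (n = 2). The day 6 libraries lay below those of day 1 in both. With the W-linked level in the fit the fall from day 3 to day 6 was -0.39 (limma adjusted p = 0.00334), and from day 1 to day 6 -0.63. Libraries high in W transcripts differed from those low in them by -0.19 ± 0.07 for KLF9 (0.128) and by -0.27 ± 0.11 for SGK1 (0.199). None of the 7 genes passed for the W-linked level, against 5.36% of all tested genes.

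**Figure D3:**
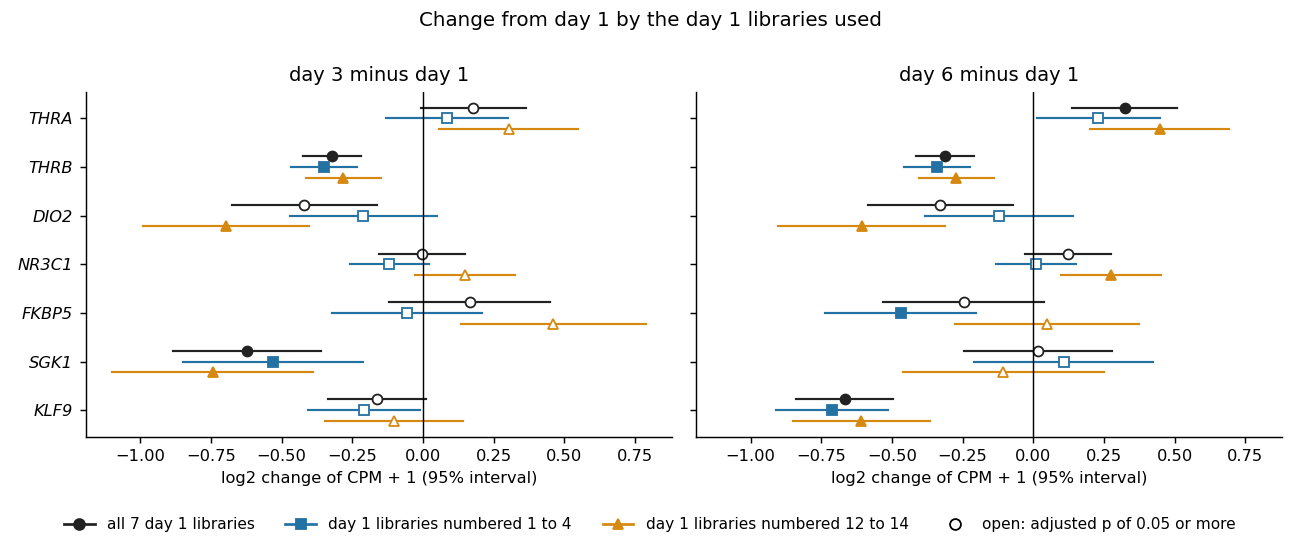
Change of the 7 tested genes from day 1 to day 3 and to day 6 (log2 change of CPM + 1, horizontal axis, with 95% intervals), measured from all 7 day 1 libraries, from those numbered 1 to 4 or from those numbered 12 to 14. Filled symbols passed an adjusted p of 0.05. DIO2 passes only from libraries 12 to 14, FKBP5 only from libraries 1 to 4, and THRB from all of them.

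No pair of the genes passed a test of whether they vary together within days. Over the 21 libraries, with each day's mean removed, 0 of the 21 pairs among the 7 tested genes passed by Pearson's r or by Spearman's rho (permutation test, Benjamini-Hochberg over the 21 pairs). The pair with the lowest p was DIO2 and KLF9, which ran opposite to each other with r = -0.64 (permutation p = 0.00308, adjusted 0.0647) and rho = -0.54 (adjusted 0.132). Without the 2 libraries farthest from the median of DIO2, r was -0.52.

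The genes whose levels over the 21 libraries were most like those of each gene that passed the F test were found by the mean absolute difference of standardised log2 levels, for which all other genes had a median of 0.958 to 1.24. For THRA they were CHRNA4 (0.368), EIF4A3 (0.371) and ABCG4 (0.378). For THRB, CEP164 (0.433) was the most like. For DIO2 they were STRN (0.456), SIPA1L2 (0.502) and GABRA2 (0.556). For SGK1 they were FNDC3AL (0.412), PPP1R13B (0.438) and SLC25A25 (0.454), the last a mitochondrial carrier that averaged 31.8, 18.8 and 31.8 CPM on days 1, 3 and 6. For KLF9 they were EPGN (0.414), TDG (0.422) and DAPK2 (0.431). EPGN, an epidermal growth factor ligand, averaged 11.8, 10.7 and 6.80 CPM.

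Of the other tested genes of the thyroid hormone pathway, none passed from day 1 to day 3 in the main fit. Of 8 symbols for hormone supply 3 were tested, and the single change was a fall of CRYM, which binds the hormone in the cytosol, from 4.90 ± 1.17 on day 1 to 3.24 ± 0.714 CPM on day 6 (-0.47 ± 0.13, limma adjusted p = 0.0143). Of 12 receptor partners 10 were tested: none passed by day 3, 5 rose and none fell from day 3 to day 6, and 2 rose from day 1 to day 6. The medians were -0.20, 0.35 and 0.09. By day 3, 3 fell from libraries 1 to 4 alone, beside 425 of all 11072 genes. From libraries 12 to 14 alone 1 fell, beside 201, and with the W-linked level 1 fell, beside 228. From day 3 to day 6 the coactivator MED1 rose by 0.47 ± 0.07 (0.000192), the corepressor NCOR1 by 0.34 ± 0.06 (0.000653), and the coactivators NCOA2 and NCOA1 by 0.35 (0.00426) and 0.56 (0.00432). Of 14 symbols listed as further response genes 7 were tested: 2 rose and none fell from day 3 to day 6, and 1 rose and 1 fell from day 1 to day 6. From day 3 to day 6 THRAP3, a receptor-associated protein gene, rose by 0.26 (0.00194) and the calcium pump gene ATP2A2 by 0.30 (0.0107). From day 1 to day 6 THRAP3 rose by 0.27 (0.00110) and KLF13 fell by 0.40 (0.00949). THRAP3 was thus 1 of the 2 rises from day 3 and the only rise from day 1. It is listed for its tie to the receptor, so its rises are not read as a response to the hormone. These counts stand beside the 19.4% of all genes that rose from day 3 to day 6. After median-of-ratios scaling 920 of all 11072 genes rose on that step. Of the receptor partners 5 rose and none fell there, and of the listed response genes 2, THRAP3 among them, rose and 1 fell.

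Of 9 symbols for chaperones that hold the glucocorticoid receptor 8 were tested: 1 fell by day 3, 6 rose and none fell from day 3 to day 6, and 3 rose and 2 fell from day 1 to day 6, with medians of -0.23, 0.61 and 0.41. Of all tested genes 1.63% fell by day 3 and 19.4% rose from day 3 to day 6, the step over which FKBP5 fell. From day 1 to day 6, 19.8% rose and 4.46% fell. HSP90AB1 (-0.10, limma adjusted p = 0.498) and BAG1 (0.00, 0.985) did not pass there. They were the 2 that fell from day 1 to day 6. HSP90AB1 stood at 17.05 to 28.39 CPM on day 1 and 15.3 to 19.26 CPM on day 6. BAG1 stood at 6.144 to 7.746 and 5.235 to 6.445 CPM on these days. HSP90AA1 rose by 0.95 ± 0.20 from day 3 to day 6 (limma adjusted p = 0.00209), FKBP4, the cochaperone that takes the place of FKBP5 on the hormone-bound receptor, by 0.61 ± 0.10 (0.000610), PTGES3 by 0.62 ± 0.10 (0.000523) and HSPA4 by 0.60 ± 0.11 (0.000915). With median-of-ratios scaling 5 of the 8 chaperones rose and none fell from day 3 to day 6, beside 920 of all 11072 genes rising. Changes from day 1 depended on the code set here too. Measured from libraries 12 to 14 alone, 1 rose and none fell by day 6, beside 1378 and 127 of all 11072 genes. From libraries 1 to 4 alone 6 rose and 2 fell, beside 1996 and 881. By day 3 none rose and 4 fell from libraries 12 to 14, beside 326 and 201. None rose and 1 fell by day 3 from libraries 1 to 4, beside 201 and 425.

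Of 27 further glucocorticoid response genes 17 were tested. From day 1 to day 3 none rose and 2 fell, PER2 and KLF15, beside 1.67% and 1.63% of all tested genes. From day 3 to day 6 3 rose, beside 19.4% of all tested genes. PER2, a clock gene that the receptor induces, averaged 182 ± 25.4, 127 ± 11.1 and 176 ± 13.3 CPM, falling by 0.51 ± 0.08 (limma adjusted p = 0.000745) and then rising by 0.46 ± 0.08 (0.000750). KLF15 averaged 6.45 ± 0.832, 4.37 ± 0.599 and 5.92 ± 0.977 CPM, falling by 0.47 ± 0.09 (0.00433) and then rising by 0.36 ± 0.09 (0.00784). Both went down and back on the same days as SGK1. The labels give no hour of collection, so differences in hour between the days cannot be told apart from days of lens wear for these genes. From day 1 to day 6 3 rose, with CDKN1A at 0.59 (0.00185) and BCL6 at 0.19 (0.0378), and 3 fell. Of all tested genes 19.8% rose and 4.46% fell over those days. The 3 that fell were not among the 4 genes with the lowest F test p and are not named. GLUL, glutamine synthetase of Muller glia and the classic glucocorticoid target of the chick retina, singled out after its values were seen, did not pass, with levels of 422 to 720.2 CPM on day 1, 486 to 571 on day 3 and 478 to 796.5 on day 6. With the libraries set to a common scale by the median of ratios, 3 rose and 2 fell from day 3 to day 6, and 1 rose and 3 fell from day 1 to day 6. Of 5 symbols for glucocorticoid supply and the other receptor 2 were tested and none changed. HSD11B2, which inactivates the steroid, was at 0 to 0.056 CPM.

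Among partners and relatives of SGK1 and KLF9, genes moved both ways. Of 13 symbols of the SGK1 pathway 11 were tested, and 1, 2 and 1 rose and 1, 1 and 2 fell in the 3 comparisons. Of all tested genes 1.67, 19.4 and 19.8% rose and 1.63, 3.44 and 4.46% fell in the same order. PDPK1, the kinase that activates SGK1, rose by 0.25 ± 0.05 from day 1 to day 6 (limma adjusted p = 0.000988). NEDD4L, a ubiquitin ligase and substrate of SGK1, fell by 0.63 ± 0.12 from day 3 to day 6 (0.00160), and by 0.36 with the W-linked level in the fit (0.00849). FOXO3, another substrate, fell by 0.23 (0.0334) and rose by 0.28 (0.00234) on the days when SGK1 fell and rose, and NDRG1 rose by 0.47 from day 1 to day 3 (0.0110). Of 12 other KLF symbols 8 were tested: none rose and 1 fell by day 3, and 2 rose and 2 fell in each of the later comparisons. KLF3 rose by 0.37 (0.00136) and KLF6 by 0.40 (0.000867) from day 1 to day 6, while KLF13 fell along with KLF9.

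The code sets of day 1 also bore on these wider lists. Measured from libraries 12 to 14 alone, the changes from day 1 named above for KLF13 (-0.14, limma adjusted p = 0.408), CRYM (-0.41, 0.0945), KLF15 (-0.38, 0.0613), CDKN1A (0.44, 0.0697), PDPK1 (0.17, 0.0640) and FOXO3 (-0.16, 0.179) kept their sign and did not pass. Measured from libraries 1 to 4 alone, those of NDRG1 (0.32, 0.0577) and BCL6 (0.16, 0.166) did not. From the same libraries MED1 fell by day 3 (-0.31, 0.00928), as did KLF13 (-0.36, 0.0378), neither of which passed in the main fit. The rise of MED1 by day 6, 0.28 in the main fit (0.00621), was 0.16 from libraries 1 to 4 (0.0815). NCOA2 fell by day 3 from libraries 12 to 14 (-0.35, 0.0215) and with the W-linked level (-0.33, 0.00868). After median-of-ratios scaling BCL6 was at 0.10 (0.325), while PDPK1 at 0.16 (0.0347) and THRAP3 at 0.18 (0.0332) still passed from day 1 to day 6.

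**Figure D4:**
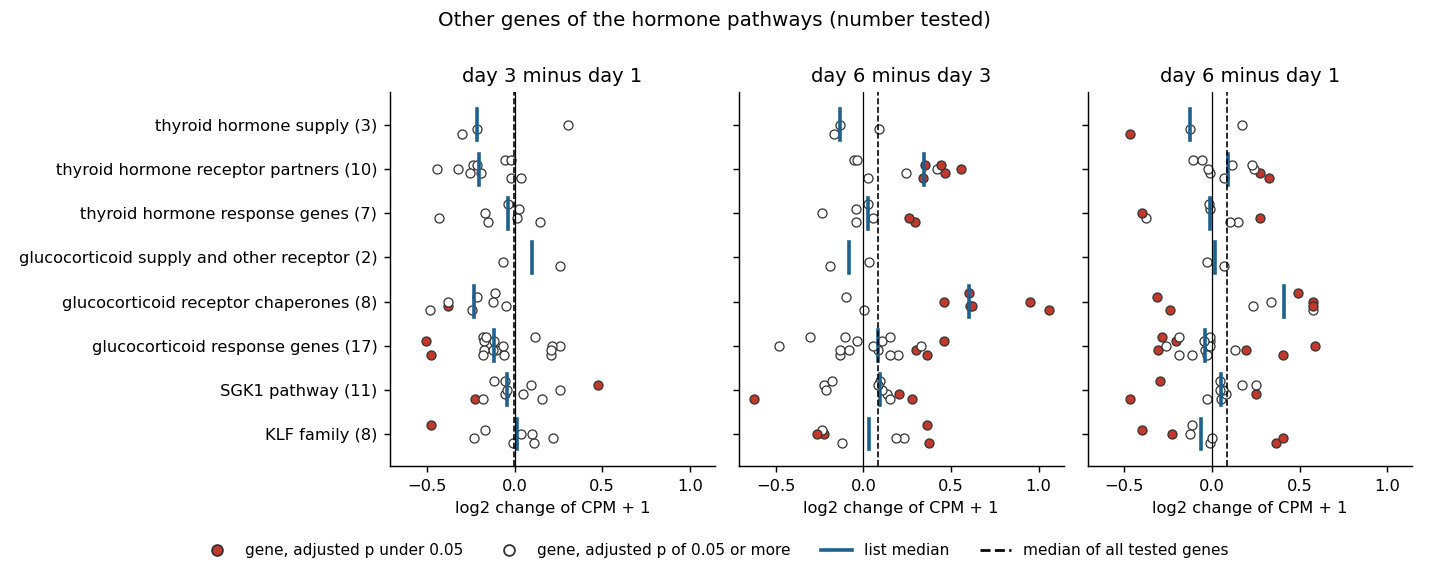
Log2 change of CPM + 1 (horizontal axis) of each tested gene of the 8 pathway lists, by comparison. Filled points passed an adjusted p of 0.05, bars mark the list medians and dashed lines the median of all tested genes. From day 3 to day 6 the medians of the receptor chaperones (0.61) and receptor partners (0.35) lie to the right of that of all genes (0.08).

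Among markers of the remaining cell types 1 gene passed. Of 8 Muller glia symbols 5 were tested, and VIM fell from day 1 to day 6 (-0.23, limma adjusted p = 0.0132, or 0.0910 against libraries 12 to 14), with a summed level of 1006 to 1325 CPM on day 1, 1055 to 1121 on day 3 and 1026 to 1322 on day 6. Of 9 pigment epithelium symbols 2 were tested and none changed. RPE65 stood at 0.899 to 7.04 CPM, TYR at 0.023 to 0.169 and MLANA at 0 to 0.084, and the summed level of 24.9 to 46.7 CPM was mostly OTX2, which the neural retina also makes. Of 8 endothelium and choroid symbols and 7 microglia symbols 2 each were tested and none changed, with sums of 42.7 to 67.2 and 4.46 to 8.43 CPM. None of 7 red blood cell symbols was listed. Of 5 W-linked genes none passed between days, with median changes of -1.93, 2.47 and 0.82 in the 3 comparisons. Libraries with W transcripts were 4, 1 and 5 of 7 on days 1, 3 and 6. The lack of a pass therefore does not show the days to be alike in W transcripts.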

How the data were processed

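RNA of 21 chicken retinas was sequenced, 7 after each of 1, 3 and 6 days of lens wear. Per the labels' protocols, ribosomal RNA was depleted and libraries were made with a stranded kit. The submitters' processing notes name STAR, Partek and build GRCg6a, without versions. The deposited values are CPM as scaled by the authors, with 0.0001 on every value, which was subtracted. The listed genes make up 30.35 to 33.25% of each library's scale, and what else the authors' denominator held is unknown. That share was 30.65 to 31.21% on day 1, 30.35 to 32.22% on day 3 and 31.74 to 33.25% on day 6. In each library 94.5 to 95.7% of low values were whole multiples of its smallest step (tolerance 0.1), so whole reads are not claimed, depths are estimates and no count model was run. Positions are as listed, and no source used here says if they count from 0 or 1.

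Tests used limma 3.58.1 in R 4.3.3 on log2(CPM + 1), with 1 mean per day, 18 residual degrees of freedom, a filter at a mean of 1 CPM and Benjamini-Hochberg adjustment at 0.05 over all 11072 tested genes. DIO3, under that filter, was tested with an exact permutation test on log2(CPM + 0.1). Correlations used 100000 permutations. The procedure was checked on simulated data. These were drawn independently for each gene with no split within a day. The check therefore does not bear on the code sets or the scaling. Python 3.11.15 with pandas 2.3.3, numpy 2.4.6, scipy 1.17.1 and matplotlib 3.10.9 made the tables and figures. The genes and the 16 lists were chosen with earlier results of these data known. Besides the 8 genes, the text names up to 4 genes of a list with the lowest F test p among those called, and the 3 genes most like each one that passed the F test. Some genes this rule names are not reported here. W transcripts were called present above 10 CPM of HINTW. Alternatives were other pseudocounts, filters, scaling, moderation, covariates (W-linked level, code letter, code set), fits of the compared days alone, code sets alone and leaving out each library. The fits of the lower or higher code sets of each day, and DIO3 with a pseudocount of 1, were chosen after seeing the data. Sequences of the genes were not used here.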

Additional observations from a re-analysis of the deposited data

Results flagged for a closer look

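In 24 groups of 7 libraries, 1 for each gene and day, 2 held a library whose gap to the nearest other exceeded Dixon's 95% critical value. Chance flags about 1 in 20 such groups. THRA on day 3 was 2.562 CPM in library 38, against 1.181 to 1.747 CPM in the other 6. Without that library the difference of THRA from day 3 to day 6 was 0.22 and passed (limma adjusted p = 0.0352). FKBP5 on day 6 was 19.29 CPM in library 54, against 10.49 to 13.71 CPM in the other 6.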

How the results depend on the processing

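No paired analysis was possible because the groups share no replicate numbers. Median-of-ratios scaling moved the median change of all genes from 0.08 to 0.00 for day 6 against days 3 and 1. With it 920 genes rose and 929 fell from day 3 to day 6, against 2143 and 381 in the main fit. From day 1 to day 6, 901 rose and 1040 fell, against 2197 and 494. From day 1 to day 3 limma called 366 genes, and 626 measured from day 1 libraries 1 to 4, 617 with the lower code sets alone and 230 with the compared days alone. From day 3 to day 6 it called 2524, and 429 with the higher and 840 with the lower code sets. From day 1 to day 6 it called 2691, and 1505 from libraries 12 to 14, 1319 with the higher and 1416 with the lower sets. The F test called 3284, and 1414 and 1811 with these sets. Of the 7 genes, the higher sets alone called 1 from day 1 to day 3, beside 306 of all 11072 tested genes. That gene was neither THRB nor SGK1, the 2 called in the main fit. The higher sets called 1 of the 7 from day 3 to day 6 and 3 by the F test. Libraries 12 to 14 alone called 5 of the 7 from day 1 to day 6. These fits use fewer libraries.

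KLF9, THRB and DIO3 kept their direction from day 1 to day 6 in every alternative run for each. Signs turned for differences that did not pass. With median-of-ratios scaling THRB and DIO3 from day 3 to day 6 were -0.081 and -0.059, and SGK1 from day 1 to day 6 was -0.076. With the W-linked level NR3C1 from day 1 to day 3 was 0.029 and DIO2 from day 3 to day 6 was -0.033. Against libraries 12 to 14 NR3C1 to day 3 was 0.15, FKBP5 to day 6 0.049 and SGK1 to day 6 -0.11. FKBP5 to day 3 was -0.057 against libraries 1 to 4. With the lower sets alone THRA and FKBP5 to day 3 were -0.036 and -0.024, and THRB from day 3 to day 6 was -0.011. With the higher sets alone NR3C1 and KLF9 to day 3 were 0.13 and 0.048, and FKBP5 and SGK1 to day 6 were 0.14 and -0.31. Leaving out 1 library gave ranges across 0 for NR3C1 to day 3 (-0.047 to 0.026), THRB and DIO3 from day 3 to day 6 (-0.0091 to 0.022 and -0.040 to 0.078) and SGK1 to day 6 (-0.055 to 0.12). DIO2 passed to day 3 without library 29 or 55 (-0.47 and -0.42), and to day 6 without 2, 3, 4, 46 or 47 (-0.38 to -0.36), with median-of-ratios scaling (-0.42) and with the W-linked level (-0.36). FKBP5 passed from day 1 to day 6 without library 13 (-0.36). The cause was not tested. Low counts limit THRA and DIO3 most.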
